A study of Mus musculus with 4 samples.

Results

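The transcripts of 10 lineage-defining transcription factors were compared between splenic CD4+ T cells that had switched on Il10 and those that had not. The genes were taken from a list of names, drawn up with earlier results of these data known. They comprised 5 factors linked to type 1 regulatory (Tr1) T cells (Maf, Prdm1, Batf, Ahr and Nfil3) and 5 that mark other helper or regulatory lineages (Tbx21, Gata3, Rora, Bcl6 and Foxp3). All 10 were found among the 47643 genes of the count table, and all 10 passed the minimum of 10 counts summed over the libraries, as did 9608 genes in total. Every cell came from Tg4 Nr4a3-Tocky IL-10 GFP mice, whose CD4+ T cells bear 1 transgenic receptor, specific for a peptide of myelin basic protein. A Timer protein that changes color with age reports Nr4a3 in them, and EGFP reports Il10. The mice received 4 mg/kg of the peptide [4Y]-MBP subcutaneously and spleens were taken 24 h later. Timer+ cells were then sorted into Il10-EGFP+ and Il10-EGFP− T cells, so that both populations had recently signaled through the receptor. There were 2 biological replicates of each population, no unimmunized animals, and no library of Timer− cells. The libraries are called negative and positive below.

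Naive CD4+ T cells take on different fates under the control of a small set of transcription factors. T-bet (Tbx21) directs Th1 cells, GATA3 directs Th2 cells, RORα (Rora) acts in Th17 cells, BCL6 directs follicular helper T (Tfh) cells, and FoxP3 directs regulatory T (Treg) cells. Tr1 cells make IL-10 without FoxP3. c-Maf, the aryl hydrocarbon receptor and Blimp-1 (Prdm1) are known to act on Il10, BATF opens chromatin at many effector genes together with IRF4, and NFIL3 (E4BP4) is known to raise IL-10 in several helper lineages. Blimp-1 and BCL6 are known to repress each other.

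The libraries held between 644679 and 730330 counts and between 11755 and 12230 genes with at least 1 count. Il10, the gene of the sort, was counted 29 and 41 times in the positive and 0 times in both negative libraries, at least 12.4-fold higher against a floor of 3 counts per library. Of 8 CD4+ T cell markers, all were detected in every library and 1 (Trac) was called, as higher in Il10-EGFP+, with Cd4 counts of 153 and 149 in the negative and 162 and 209 in the positive libraries. Levels are given as CPM, the counts of a gene relative to its library's total, scaled with TMM factors. Reads come from the 3′ end of each transcript and do not scale with its length, so CPM was also used to set genes side by side. In sorted bulk samples, fewer cells with a transcript and less transcript per cell cannot be told apart.

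Of the 10 factors, 3 differed between the populations at an adjusted p under 0.05, with 2 higher and 1 lower in Il10-EGFP+ T cells. Maf rose 2.00-fold from a high level, Prdm1 rose 4.52-fold, and Rora was 2.65-fold lower. Of all genes tested, 4.09% were called in either direction, 2.35% as higher and 1.74% as lower. The 7 other factors were not called. Both Il10-EGFP+ libraries lay on 1 side of both Il10-EGFP− libraries for 7 of the 10 factors, against 44.6% of all genes tested. The 4 factors that were separated in this way but not called were Ahr, Tbx21, Gata3 and Bcl6. The populations overlapped for Batf, Nfil3 and Foxp3.

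**Figure D1:**
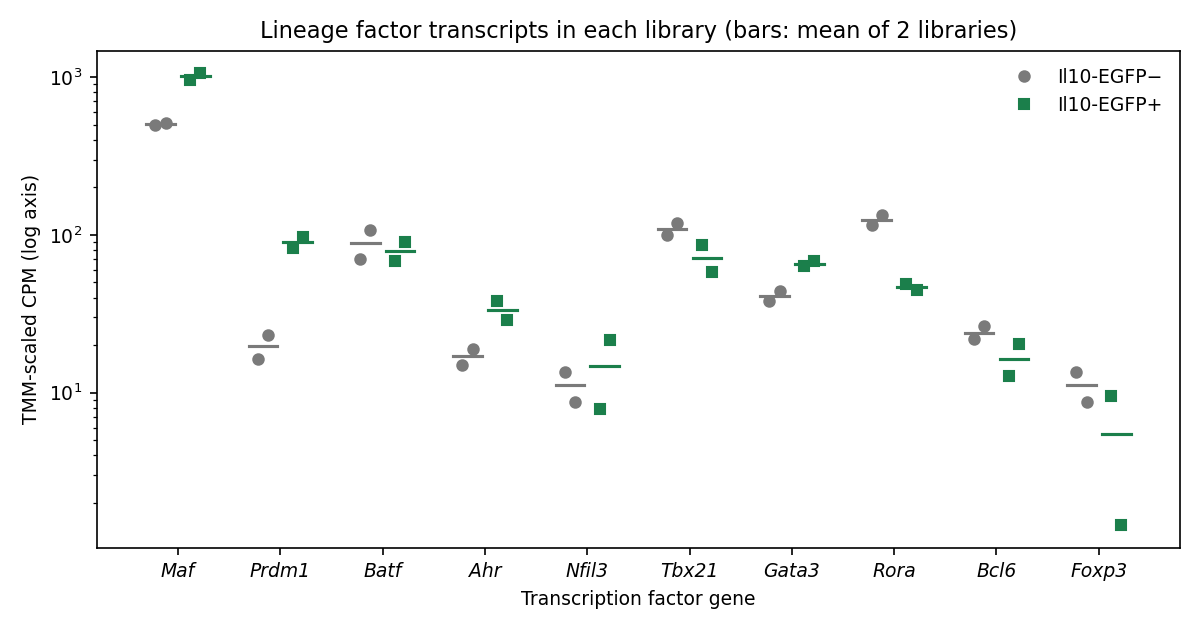
TMM-scaled CPM (log axis) of the 10 transcription factor genes, with 1 point per library, gray circles for Il10-EGFP− and green squares for Il10-EGFP+ T cells, and a bar at the mean of 2 libraries. Maf stood above all other factors in both populations, and the 2 populations were farthest apart, relative to their replicates, for Maf, Prdm1 and Rora.

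Maf (ENSMUSG00000055435; chromosome 8 of GRCm38, 115682942 to 115707794, minus strand) encodes c-Maf, a basic leucine zipper factor that binds the Il10 promoter. Its counts were 367 and 349 in the negative and 608 and 731 in the positive libraries, or 498.2 and 509.2 CPM against 963.4 and 1055 CPM. Both positive libraries were well above both negative ones, and the negative libraries were within a few percent of each other. The log2 fold change was 1.00 (95% interval 0.74 to 1.27, adjusted p = 3.58e-07, edgeR), and Maf ranked 11 of 9608 genes by p.

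Prdm1 (ENSMUSG00000038151; chromosome 10, 44437177 to 44528501, minus strand) encodes Blimp-1, a zinc finger transcriptional repressor known to drive plasma cell differentiation. It was counted 12 and 16 times in the negative and 52 and 67 times in the positive libraries, or 16.3 and 23.3 CPM against 82.4 and 96.7 CPM. The populations did not overlap, and the gap between them was several times the spread within either. The log2 fold change of 2.18 (95% interval 1.52 to 2.83, adjusted p = 5.88e-06, edgeR) was the largest among the 10 factors, and Prdm1 ranked 23 by p.

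Rora (ENSMUSG00000032238; chromosome 9, 68653786 to 69388246, plus strand) encodes the orphan nuclear receptor RORα. It moved the other way, with counts of 85 and 92 in the negative libraries and 31 in each positive library, or 115.4 and 134.2 CPM against 49.1 and 44.7 CPM. No positive library came near a negative one. Its log2 fold change was -1.41 (95% interval -1.91 to -0.91, adjusted p = 0.000162, edgeR), and it ranked 40 by p. Annotated exons of Maf and of Rora each overlap an antisense gene (Gm15655 and Gm15511), and both antisense genes had 0 counts in every library.

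RefSeq promoters, 300 bases each on GRCm38.p6 with 250 before and 50 from the start, were available for 8 of the 10 factors (10 starts). Maf and Ahr had no entry. The promoters of the called genes Prdm1 and Rora are shown to set a gene that rose beside one that fell. Capitals mark matches, on either strand, to the motifs searched. For AP-1 the letters searched were TGANTCA. A half-element known to be bound by Maf proteins was read as TGCTGA, and the core of the element bound by the aryl hydrocarbon receptor as GCGTG. The ROR core was AGGTCA and the GATA motif was AGATAA. The T-box core was TCACACC, the E-box was CACCTG, and a longer core motif of Blimp-1 was also searched. The first is chr10:44458699-44458998, minus strand, at a start inside the span that GENCODE gives the gene, and the second is chr9:68653536-68653835, plus strand.
Prdm1: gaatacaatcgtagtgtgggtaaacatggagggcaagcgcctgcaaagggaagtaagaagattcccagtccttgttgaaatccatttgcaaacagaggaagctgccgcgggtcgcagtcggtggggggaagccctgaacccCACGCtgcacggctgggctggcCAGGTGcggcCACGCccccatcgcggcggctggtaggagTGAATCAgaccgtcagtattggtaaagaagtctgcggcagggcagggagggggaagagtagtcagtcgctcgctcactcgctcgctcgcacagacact
Rora: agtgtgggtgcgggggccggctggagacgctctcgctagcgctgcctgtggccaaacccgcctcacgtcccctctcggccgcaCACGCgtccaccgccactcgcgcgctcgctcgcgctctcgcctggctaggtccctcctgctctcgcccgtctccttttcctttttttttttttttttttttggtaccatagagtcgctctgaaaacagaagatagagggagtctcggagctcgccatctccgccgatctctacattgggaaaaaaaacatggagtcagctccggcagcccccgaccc
The Prdm1 window held 1 AP-1 match, which begins 48 bases before the start, 2 matches to the aryl hydrocarbon receptor core and 1 E-box. It was the 1 promoter with an AP-1 match among the 10 member promoters, and 7.81% of 32851 promoters had such a match. The Rora window held a single match, to the aryl hydrocarbon receptor core, which 32.4% of all promoters had. None of the 10 member promoters had the Blimp-1 motif (1.10% of all promoters). The Maf half-element was found in the promoters of Gata3 and Foxp3 and in 19.5% of all promoters. The T-box core was in none either (3.98% of all promoters), while the ROR core, the GATA motif and the E-box were each in 2 of the 10 (16.3%, 11.2% and 20.2% of all promoters). These matches describe letters in a window and were not tested for binding.

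The other Tr1-linked factors were not called. Batf, the partner of JUN and IRF4 proteins, was counted 52 and 74 times in the negative and 43 and 62 times in the positive libraries, or 70.6 and 108.0 CPM against 68.1 and 89.5 CPM. The populations overlapped, and the log2 fold change was -0.17 (95% interval -0.67 to 0.33, adjusted p = 0.839, edgeR), which changed sign to 0.16 without Il10-EGFP− replicate 2. Ahr, the ligand-activated receptor for aryl hydrocarbons, had few counts, 11 and 13 against 24 and 20, or 14.9 and 19.0 CPM against 38.0 and 28.9 CPM. Both positive libraries were above both negative ones, with a log2 fold change of 0.97 close to that of Maf. With a 95% interval of 0.10 to 1.85 before adjustment for the number of genes, its adjusted p was 0.252 (edgeR). Nfil3 had 10 and 6 counts against 5 and 15, the widest relative spread of the Il10-EGFP+ libraries after Foxp3. Its log2 fold change was 0.41 (95% interval -0.80 to 1.62), and -0.49 without Il10-EGFP+ replicate 2, so no direction was resolved at this depth.

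Among the helper lineage factors, the counts of Tbx21 were 73 and 81 in the negative and 54 and 40 in the positive libraries, or 99.1 and 118.2 CPM against 85.6 and 57.7 CPM. T-bet transcripts were therefore present in both populations, and both positive libraries were below both negative ones. The log2 fold change was -0.61 (95% interval -1.09 to -0.12 before adjustment, adjusted p = 0.167, edgeR). Gata3 lay on the other side of 0, with 28 and 30 counts against 40 and 47, or 38.0 and 43.8 CPM against 63.4 and 67.8 CPM. Its log2 fold change was 0.68 (95% interval 0.09 to 1.28 before adjustment, adjusted p = 0.232, edgeR). Neither gene was called, although neither overlapped between the populations.

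Bcl6 was counted 16 and 18 times in the negative and 8 and 14 times in the positive libraries, or 21.7 and 26.3 CPM against 12.7 and 20.2 CPM. The libraries did not overlap, but the highest positive library was close to the lowest negative one, and the log2 fold change of -0.53 had a 95% interval of -1.48 to 0.43 (adjusted p = 0.677, edgeR). Foxp3 was the scarcest factor, counted 10 and 6 times in the negative and 6 and 1 times in the positive libraries, or 13.6 and 8.75 CPM against 9.51 and 1.44 CPM. Its log2 fold change of -1.05 had a 95% interval of -2.66 to 0.56 (adjusted p = 0.597, edgeR). Exons of Foxp3 overlap those of Ccdc22 on the other strand, which was counted 9 and 2 times in the negative and 3 and 4 times in the positive libraries. Because the strand setting of the counting is not given in the sources used here, reads of these 2 genes cannot be told apart with certainty.

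**Figure D2:**
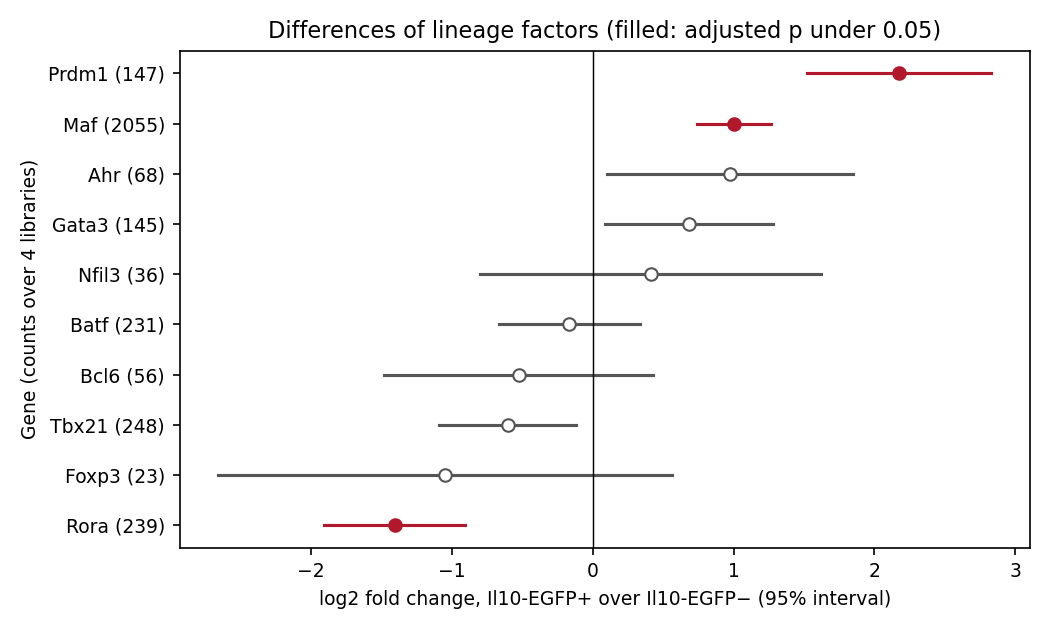
Log2 fold change of each factor (Il10-EGFP+ over Il10-EGFP−, points) with its 95% interval from the edgeR fit (lines), with the total count over 4 libraries in brackets. Filled red points passed an adjusted p of 0.05, and they were Prdm1, Maf and Rora, while the intervals were widest for Foxp3 (23 counts) and Nfil3 (36 counts).

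The order of the factors by level differed between the populations. In Il10-EGFP− T cells, Maf was highest at 503.7 ± 7.82 CPM (SD, n = 2), followed by Rora at 124.8 ± 13.3, Tbx21 at 108.6 ± 13.5 and Batf at 89.3 ± 26.4 CPM. Rora, Tbx21 and Batf were neighbors whose libraries overlapped. Prdm1 was in place 7 there, at 19.8 ± 4.99 CPM, and overlapped with both Bcl6 above it and Ahr below it. In Il10-EGFP+ T cells, Maf was again highest at 1009 ± 64.5 CPM (SD, n = 2), and Prdm1 came next at 89.5 ± 10.1 CPM. Prdm1, Batf, Tbx21 and Gata3 formed a run in which each overlapped with the next. Rora had dropped to place 6 at 46.9 ± 3.11 CPM and overlapped with neither neighbor. By mean CPM, Nfil3 and Foxp3 were the lowest pair in both populations, although Nfil3 overlapped with Bcl6 in Il10-EGFP+ T cells.

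Of all reads assigned to the 10 factors, Maf took 55.3% and 50.9% of the negative and 69.8% and 71.1% of the positive libraries, with exact (Clopper-Pearson) 95% intervals of 51.4 to 59.1%, 47.1 to 54.8%, 66.6 to 72.8% and 68.2 to 73.9%. These intervals cover counting error only. Summed over the 9 factors other than Maf, the sums lay between 403.2 and 490.2 CPM in the negative and between 416.7 and 428.5 CPM in the positive libraries, so that the populations overlapped in this sum.

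Ratios of 2 factors within a library do not depend on the scaling between libraries, and 5 pairs were compared. Reads of Prdm1 and Bcl6, which encode mutual repressors, stood at 0.75 and 0.889 Prdm1 reads per Bcl6 read in the negative and at 6.50 and 4.79 in the positive libraries. The ratio was under 1 in both negative and above 1 in both positive libraries. In shares of the reads of this pair, Prdm1 had 42.9% and 47.1% in Il10-EGFP− (exact 95% intervals 24.5 to 62.8% and 29.8 to 64.9%) and 86.7% and 82.7% in Il10-EGFP+ T cells (75.4 to 94.1% and 72.7 to 90.2%). Both Il10-EGFP− intervals included equal shares, so the order of Prdm1 and Bcl6 was not resolved there. The ratio of Prdm1 to Rora crossed 1, from 0.141 and 0.174 to 1.68 and 2.16. Between the means of the log2 ratios, taken with 0.5 added to each count, the difference was 11.7-fold. This was the largest of the 5.

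There were 4.32 and 3.79 Maf reads per Rora read in the negative and 19.6 and 23.6 in the positive libraries. Maf to Bcl6 went from 22.9 and 19.4 to 76.0 and 52.2. Tbx21 to Gata3 was the pair that fell, from 2.61 and 2.70 in Il10-EGFP− to 1.35 and 0.851 in Il10-EGFP+ T cells, a difference of -1.29 between the log2 ratios taken in the same way. Of the reads of this pair, Tbx21 had 72.3% and 73.0% in the negative libraries (exact 95% intervals 62.5 to 80.7% and 63.7 to 81.0%). It had 57.4% and 46.0% in the positive libraries (46.8 to 67.6% and 35.2 to 57.0%), where both intervals held 50%, so that the order of both genes was not resolved there. For all 5 pairs the populations did not overlap. The exact two-sided permutation test gave p = 0.333, also after Benjamini-Hochberg adjustment over the 5 pairs. That is the smallest p this test can give for 2 libraries against 2, and every pair without overlap gets it. The permutation test therefore cannot reach 0.05 for a single ratio.

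**Figure D3:**
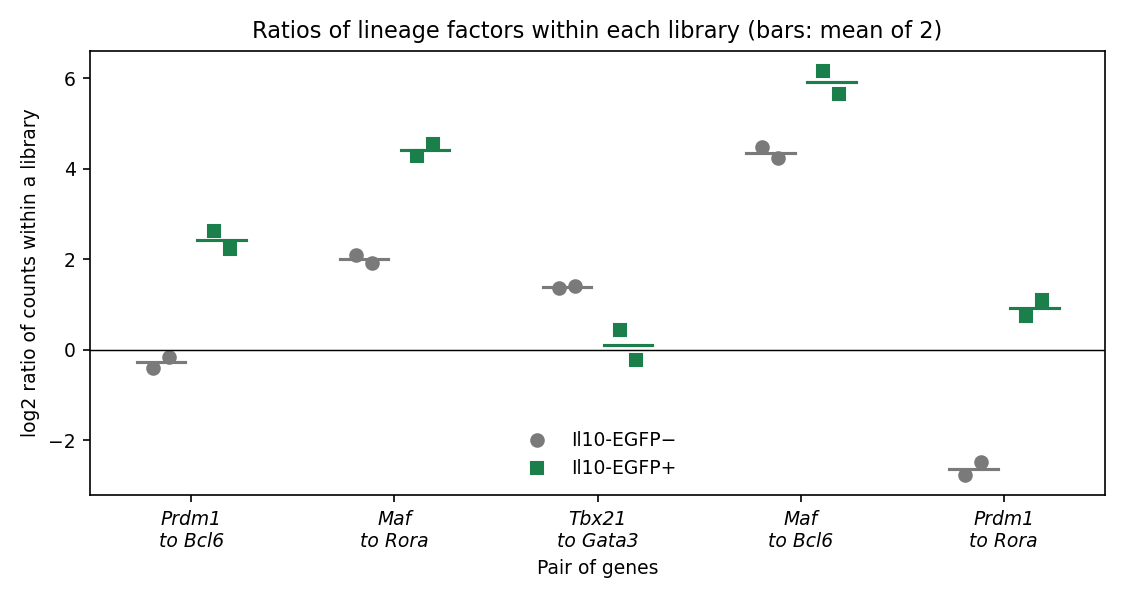
Log2 ratio of the counts of 2 factors within each library (0.5 added to each count), gray circles for Il10-EGFP− and green squares for Il10-EGFP+ T cells, with a bar at the mean of 2 libraries and a line at 0, where the counts are equal. Prdm1 to Bcl6 and Prdm1 to Rora lay below 0 in both Il10-EGFP− libraries and above 0 in both Il10-EGFP+ libraries. The order of Prdm1 and Bcl6 was not resolved in Il10-EGFP− T cells. Tbx21 to Gata3 was lower in Il10-EGFP+ T cells.

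Genes linked to each factor were read from the same fit. Over all genes tested, the median log2 fold change was 2.54e-05, and 2.35% were called as higher and 1.74% as lower. Of 17 listed receptors and cytokines of Tr1 cells, 14 were tested, 5 were higher and 0 were lower, at a median of 0.54 for the list. Il10 is among the 5, and as the gene of the sort it differed by design. The others included Gzmb, which encodes the cytotoxic protease granzyme B (log2 fold change 1.59), the co-inhibitory receptor gene Ctla4 (1.22) and the costimulatory receptor gene Icos (0.82). Lag3 and Tigit, which encode 2 co-inhibitory receptors linked to Tr1 cells, had at most 6 counts in any library, and neither was called. Their log2 fold changes were 0.10 and 0.32 (adjusted p = 0.983 and 0.940, edgeR), and no difference was detectable at this depth. Cd226, which encodes the activating counterpart of TIGIT, had 12 and 4 against 3 and 1 counts and was not called.

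Of 37 listed partner or counteracting transcription factors, 31 were tested, 1 was higher and 3 were lower, with a median of -0.14. Bach2, which encodes a repressor that competes with AP-1 factors and holds back Prdm1 in lymphocytes, fell from 138 and 128 counts to 46 and 67, or from 187.3 and 186.8 CPM to 72.9 and 96.7 CPM (log2 fold change -1.13, adjusted p = 0.000208, edgeR). Tcf7, which encodes the memory and stem-like factor TCF1, fell by 0.60 on the log2 scale, and Irf8 fell by 0.63. DESeq2 gave Tcf7 an adjusted p of 0.157 and Irf8 one of 0.336, and called neither. Klf2, which encodes a factor of lymphocyte trafficking, rose by 1.07 (adjusted p = 0.00531, edgeR, but 0.152 with DESeq2). Irf4, the partner of BATF, had 139 and 103 counts against 85 and 58, with a log2 fold change of -0.65 and an adjusted p of 0.0666 (edgeR), and was not called. The AP-1 genes Jun, Junb, Jund, Fos and Fosl2 were also not called.

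Blimp-1 is known to hold down a set of genes in B or T cells. Of 12 such genes 11 were tested, with log2 fold changes negative for 7 and positive for 4, and a median of -0.60. In the positive libraries 5 were called as lower and 0 as higher, against 1.74% of all genes tested called as lower. The lower ones were Id3, which encodes an inhibitor of E proteins (25 and 38 against 4 and 2 counts), the growth regulator gene Myc (27 and 19 against 7 and 7 counts), Bach2, the lymph node homing receptor gene Ccr7 and Tcf7. Il2 had 8 in each Il10-EGFP− library against 1 and 0 counts (adjusted p = 0.0724, edgeR) and was not called. DESeq2 called Bach2 and Ccr7 alone, and gave no adjusted p to Id3, Myc and Il2. Bcl6 belongs to the list and, as given above, was not called either. Pax5, Spib and Cxcr5 had positive log2 fold changes of 0.73, 0.96 and 0.34 without being called. Of these, Pax5 and Spib had at most 8 counts in any library. Tcf7 and Bach2 also stand in the list of partner factors.

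Among the lineage programs, 2 of 11 tested Th1 genes were higher (Il12rb2 and Ifngr1) and 0 lower, and the list's median was 0.88 on the log2 scale. DESeq2 called Il12rb2 alone (adjusted p = 0.041, against 0.404 for Ifngr1). Ifng, the signature Th1 cytokine gene, had 8 and 8 counts against 8 and 7. Il12rb1, which encodes the other chain of the IL-12 receptor, had 28 and 50 counts against 19 and 17 and was not called (log2 fold change -1.01, adjusted p = 0.0983, edgeR). Of 11 Th2 genes, 4 could be tested, and 0 were called by edgeR or by DESeq2 (0 at an unadjusted p under 0.05 in edgeR). The Th2 cytokine genes Il4, Il5 and Il13 had 0 counts in each library, which allows up to 4.05 to 4.72 CPM per library. Of 11 Th17 genes, 8 were tested and 0 were called by edgeR or by DESeq2 (4 at an unadjusted p under 0.05 in edgeR). Log2 fold changes were positive for 4 and negative for 4, with a median of 0.004. Il22 had 9 and 8 against 2 and 2 counts, and Stat3 had a log2 fold change of -0.47. In the other direction, Ccr6 had 1 and 5 against 6 and 12 counts, and Il1r1 had 27 and 24 against 45 and 35.

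Of 12 tested Tfh genes, Icos was higher, and Tcf7 and Cd200 were lower. Cd200, which encodes an inhibitory ligand, went from 85 and 111 to 17 and 16 counts (log2 fold change -2.46), while Cxcr5, the follicle homing receptor gene of Tfh cells, had 24 and 24 against 19 and 38 counts and was not called. Of 10 tested Treg genes, Ctla4 was higher and 0 were lower. Il2ra and Ikzf2, which encode CD25 and Helios, had log2 fold changes of 0.12 and 0.41 and were not called. Of 10 genes around the aryl hydrocarbon receptor, 5 were tested and 0 were called by edgeR or by DESeq2 (0 at an unadjusted p under 0.05 in edgeR). The other 5, the classic target genes Cyp1a1, Cyp1b1, Ahrr, Nqo1 and Aldh3a1, had 0 counts in every library. Tiparp, a further target gene, had 18 and 8 against 10 and 10 counts.

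**Figure D4:**
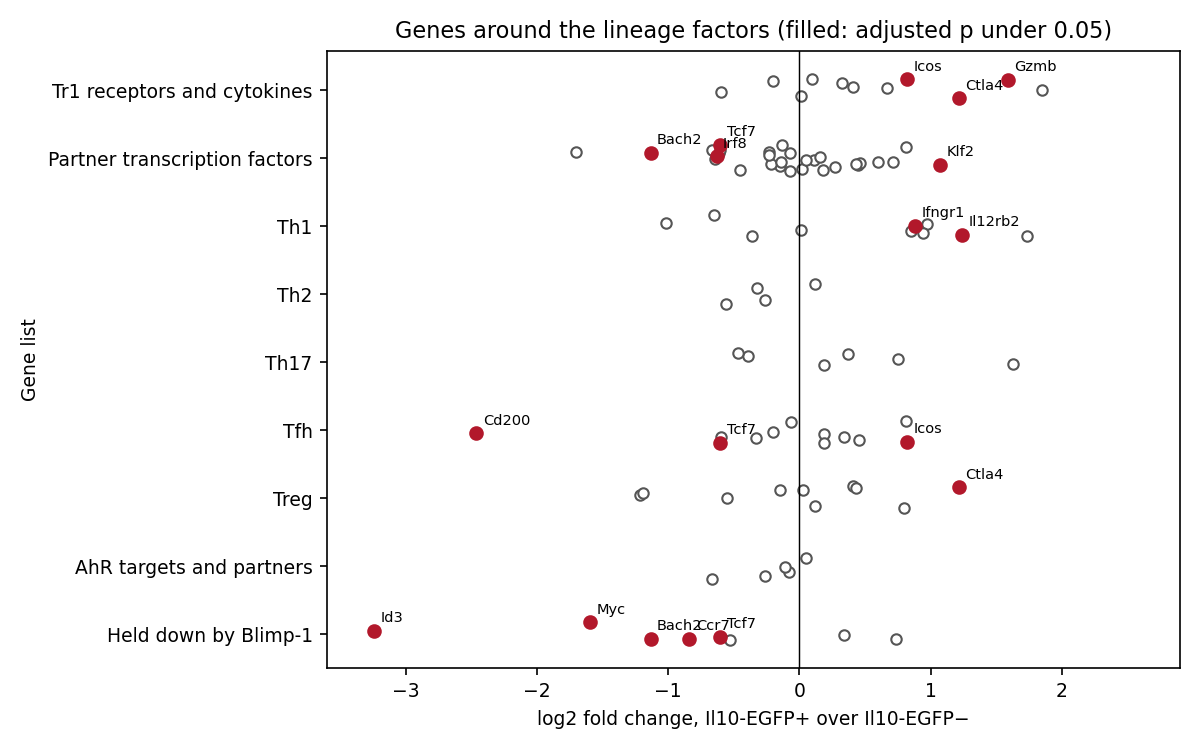
Log2 fold change (Il10-EGFP+ over Il10-EGFP−) of the tested genes of 9 lists around the factors, 1 point per gene with a small vertical offset. Genes with at most 3 counts in both libraries of a population, Il10 and Il2 among them, and a few list genes not reported here are left out. Filled red points passed an adjusted p of 0.05, and they lay to the left of 0 for Id3, Myc, Bach2, Ccr7, Tcf7, Irf8 and Cd200.

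Several of the 10 factors are also expressed by cells other than CD4+ T cells, and markers of such cells were read beside them. Prdm1 is high in plasma cells, and 4 of 7 tested B and plasma cell markers (Igkc, Ighm, Jchain and Cd22) were higher in Il10-EGFP+ T cells. DESeq2 called Igkc and Ighm and gave no adjusted p to Jchain and Cd22. The 10 listed markers summed to 114.0 and 151.7 CPM in the negative and to 426.2 and 510.7 CPM in the positive libraries, and Jchain was counted 15 and 16 times in the positive and 0 times in the negative libraries. Cd79a and the plasma cell marker Sdc1 had at most 3 counts in every library. The part of such cells in the Prdm1 difference was not tested.

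Macrophages also express Maf, and 2 of 8 tested myeloid markers (Lyz2 and S100a8) were higher by edgeR. DESeq2 called neither (adjusted p = 0.415 and 0.804). The 10 listed myeloid genes summed to 71.9 and 106.5 CPM in the negative and to 348.6 and 138.5 CPM in the positive libraries, with Adgre1 at 0 in each library and C1qa at 0 in all but Il10-EGFP+ replicate 1. Without that replicate, the log2 fold change of Maf was 1.07. The remaining positive library still had a higher myeloid sum, 138.5 CPM, than both negative libraries. The part of such cells in the Maf difference was not tested. Gata3 and Rora are high in innate lymphoid cells. Of 7 markers of those cells, Areg, Il5, Kit and Zbtb16 were at 0 in every library, and the list summed to 10.1 to 19.0 CPM. Tbx21 is expressed by natural killer cells. Of their markers, Ncr1 was at 0 in every library, and Klrb1c had at most 2 counts in any library. Klrd1 had 4 and 4 against 4 and 3 counts. Nkg7 had 2 and 9 against 13 and 22 counts and was not called (log2 fold change 1.74, adjusted p = 0.0739, edgeR). The part of such cells in the Tbx21 values was not tested. Of the 5 tested CD8+ T and natural killer cell markers, 1 (Gzma) was higher by edgeR and 0 by DESeq2 (adjusted p = 0.442 for Gzma), while 3 of the 5 had negative log2 fold changes. The CD8 chain genes Cd8a (4 and 10 against 3 and 3 counts) and Cd8b1 (18 and 17 against 7 and 13 counts) were among these, and were not called. The 8 listed markers summed to 50.2 and 90.5 CPM in the negative and to 95.1 and 111.1 CPM in the positive libraries.

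The authors' rlog values gave the same directions on a compressed scale. The rlog of Maf was 8.52 and 8.54 in the negative and 9.26 and 9.37 in the positive libraries, a difference of 0.78. That of Prdm1 went from 4.77 and 4.84 to 5.31 and 5.40, a difference of 0.55 against a fitted log2 fold change of 2.18 on the counts. Rora differed by -0.51 and Tbx21 by -0.23, and the other 6 factors differed by between -0.07 and 0.19. Limma on the rlog values called Maf, Prdm1 and Rora (adjusted p = 0.00662, 0.0142 and 0.0142), 3 of the 10 factors against 2.06% of all genes. DESeq2's Wald test on the counts called the same 3 (adjusted p = 1.84e-08, 0.00182 and 0.0188), against 2.10% of the genes to which it gave an adjusted p.

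For each called factor, the closest profiles over the 4 libraries were sought among the genes whose counts averaged 50 or more (2608 for Maf and Rora, 2609 for Prdm1), by the root mean square difference of centered log2 CPM. Closest to Maf were Ccna2, which encodes cyclin A2, and Capn2, with differences of 0.05 and 0.07. Closest to Prdm1 were Hmmr and Gbp7, at 0.24 and 0.25, and closest to Rora were Ubtf and Pim3, at 0.10 and 0.11. Over 4 libraries this likeness rests mostly on the difference between the populations.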

How the data were processed

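Messenger RNA of 2 Il10-EGFP+ and 2 Il10-EGFP− libraries was measured with a 3′ end method (QuantSeq FWD). The authors aligned reads to GRCm38 with the BlueBee pipeline (STAR 2.5.2a per the labels) and deposited read counts per Ensembl gene from HTSeq-count 0.6.0, without normalization. They also deposited rlog values on a log2 scale, made from these counts with DESeq2. The methods describe unique molecular identifiers, but whether the counts were collapsed by them is not given in the sources used here. A replicate pair that the methods describe as removed, as an outlier in principal component analysis, was not analysed here. The spread between replicates and the p-values therefore rest on the libraries that were kept. Libraries held 644679 to 730330 counts, so genes with few counts carry wide intervals.

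A gene needed 10 counts or more in total to enter the quasi-likelihood test of edgeR 4.0.16 (R 4.3.3, TMM factors, default settings), with Benjamini-Hochberg adjustment over all 9608 genes. Called means an adjusted p under 0.05. Standard errors came from the F statistic, and 95% intervals are not adjusted for the number of genes. P-values rest on 2 libraries per population. The fit was tested on simulated counts. Exact intervals and the floor of 3 counts cover counting error only. DESeq2 1.42.0, limma 3.58.1, other filters and scalings, the replicate number as a block, and fits without 1 library were alternatives.

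The 10 factors, the gene lists and the markers were chosen with earlier results of these data known. Named list genes are those past the threshold (at most 6 per list by log2 fold change) and the best known others, and genes alike to a called factor are the 2 closest. Coordinates are those of GENCODE M21 for GRCm38, and promoters those of RefSeq. Some genes of the lists are not reported by name here.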

Additional observations from a re-analysis of the deposited data

How the results depend on the processing

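The calls of Maf, Prdm1 and Rora held under all 12 alternatives, and the other 7 factors were called under none. Over these alternatives the adjusted p of Maf ran from 4.99e-16 to 0.00662, that of Prdm1 from 1.60e-08 to 0.0142 and that of Rora from 3.08e-06 to 0.0188. DESeq2 gave no adjusted p to Ahr, Nfil3, Bcl6 and Foxp3, and Nfil3, Bcl6 and Foxp3 were not tested where at least 10 counts were required in every library. The number of genes called among all tested fell from 393 to 112 with DESeq2's Wald test and to 197 with limma on the rlog values, and the cause was not tested. Leaving out 1 library gave between 212 and 272 genes, namely 223 when Il10-EGFP− replicate 1 was left out and 212 when Il10-EGFP+ replicate 2 was. There the lone library of a population was assumed to vary like the others, and fewer samples were fitted. Leaving out 1 library, the log2 fold change of Maf ran from 0.93 to 1.07, that of Prdm1 from 1.93 to 2.45 and that of Rora from -1.52 to -1.30. It changed sign for Batf (-0.45 to 0.16, with 0.0085 without Il10-EGFP+ replicate 1) and for Nfil3 (-0.49 to 0.94). It ran from 0.76 to 1.16 for Ahr, from 0.58 to 0.79 for Gata3, from -0.91 to -0.34 for Tbx21, from -0.91 to -0.24 for Bcl6 and from -2.81 to -0.24 for Foxp3. The difference of each of the 5 log2 ratios kept its sign with 1 added to both counts and without each library. With the replicate number of the labels as a block, edgeR called 560 genes and the same 3 factors. The sources do not say that a number marks 1 mouse, and the deviations from the population means correlated at 0.03 between libraries of the same number, over 4965 genes. Depth limits Nfil3 (36 counts in all), Foxp3 (23), Bcl6 (56) and Ahr (68) most.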

Other observations

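Outside the comparisons above, partners of c-Maf from its own family were read from the list of partner factors, and the genes named here were chosen after their values were seen. Mafg was counted 59 and 39 times in the negative and 56 and 54 times in the positive libraries, Mafk had 12 and 16 against 11 and 6, and neither was called. Maff had at most 5 counts in any library and was not tested. Batf3 and Batf2 had at most 2 counts in any library, and Egr3 had 0 in each. Egr2, which encodes a factor known to act upstream of Blimp-1 and Il10, was counted 16 times in each negative and 5 and 4 times in the positive libraries, a difference of -1.70 on the log2 scale that was not called (adjusted p = 0.0949, edgeR). Eomes, which encodes a T-box factor described in other Tr1 cells, had at most 5 counts in any library and was not tested.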
